A study of Mus musculus with 12 samples.

Results

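The untreated state of the tumor was described from 4 insulinomas of saline-treated mice, which were every sample labelled as a saline control among the 12 sequenced tumors of 3 treatment groups. The other groups, 4 tumors treated with sunitinib and 4 treated with rapamycin plus sunitinib, enter only as a scale for the spread between tumors, and no treatment was compared. All 12 were islet tumors (PanNET) of C57Bl6 mice of the RIP1TAG2 model, in which the insulin promoter drives the SV40 T antigen in beta cells, so that multifocal tumors arise from the insulin-producing cell itself. In every group the mice were 15.5 weeks old when dosing started, and it ran for 4 days. Poly(A) RNA of whole tumors was sequenced, and the level of a gene is given as CPM, its reads scaled to a library total of 1000000 reads on genes, or, where genes are compared with each other, as TPM, which also divides by the length of the gene's exons. All 4 titles carry the code S409, which the labels do not explain. If it stands for 1 mouse, the tumors are not independent. The titles of tumors 1 and 2 end in "Saline" and those of tumors 3 and 4 in "Ctr", although the treatment field is the same for all 4. Errors are SDs over the 4 tumors.

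A beta cell is the islet cell that makes insulin. It processes proinsulin in dense-core granules, together with islet amyloid polypeptide and granins, and releases them when glucose metabolism closes a potassium channel. This identity is held by a set of transcription factors, among them Pdx1, Nkx6-1 and Mafa, and normal adult beta cells divide rarely. A solid endocrine tumor also holds vessels with their pericytes, fibroblasts, macrophages and remnants of the surrounding exocrine pancreas, all of which contribute RNA to a bulk library.

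The totals were 44215054, 38450810, 38827853 and 34898448 reads on genes in tumors 1, 2, 3 and 4, so that 1 CPM stood for 44.2, 38.5, 38.8 and 34.9 reads. Of 38924 listed genes, 13458 were at 1 CPM or more in every tumor, 9831 at 10 CPM or more and 40 at 1000 CPM or more. Tumor 1 stood apart on several measures: Gm42418, a transcript that overlaps the ribosomal RNA repeat, was at 7914, 706, 1636 and 1334 CPM, and Lars2, a mitochondrial leucyl-tRNA synthetase, moved with it at 812, 77.5, 161 and 134 CPM. Where leaving out tumor 1 changed a count of variable genes by more than 1.5 times, the count without it is also given, which for single gene lists was decided after the data were seen. The markers of the labelled tumor type were present, as Ins2, Iapp, Chga, Mki67 and Pecam1 were all at 69.2 CPM or more in every tumor. Y-linked transcripts were found in all 4, with Ddx3y at 56.5, 86.2, 84.1 and 106 CPM, and Xist, the transcript of the inactive X chromosome, was at 0.520, 0.806, 1.11 and 1.43 CPM.

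Hormone transcripts led the list of abundant genes. Ins2, the main mouse insulin gene, was at 23090.1, 33639, 21625 and 18201 CPM in tumors 1 to 4 and alone took 2.41% ± 0.67 of all counted reads. Iapp, which encodes islet amyloid polypeptide, was at 11021, 11642, 9350.0 and 7903 CPM, and its tumors spanned a range of 1.47 times. Ins1, the second insulin gene, was at 4056, 11309, 9859 and 9003 CPM. Tumor 1 thus held the least Ins1 while its Ins2 was the next highest after tumor 2, and the level of Ins1 per 100 of Ins2 on the TPM scale was 21.7, 41.5, 56.3 and 61.1. The ratio was lowest in tumor 1 and highest in tumor 4, a range of 2.82 times. Per length, the order was Ins2 (63395 ± 15259 TPM), Iapp (35357 ± 4495 TPM) and Ins1 (28038 ± 10315 TPM). Ins2 was above both others in each tumor, whereas Iapp and Ins1 overlapped in their ranges.

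Of Ins2, Iapp and Ins1, the table of promoters matched Ins1 and Iapp. For these the 250 bases upstream of the annotated start are shown here because these genes stood near the top of the list, and beta-cell promoters are known for short elements read by homeodomain factors such as Pdx1 and Nkx6-1 and by basic helix-loop-helix factors such as Neurod1. The sequences are from RefSeq (GRCm38.p6) and are written 5′ to 3′ on the plus strand, chr19:52264047-52264296 for Ins1 and chr6:142298175-142298424 for Iapp. Capitals mark each TAAT and each CATCTG on either strand, and matches that overlap run together.
Ins1: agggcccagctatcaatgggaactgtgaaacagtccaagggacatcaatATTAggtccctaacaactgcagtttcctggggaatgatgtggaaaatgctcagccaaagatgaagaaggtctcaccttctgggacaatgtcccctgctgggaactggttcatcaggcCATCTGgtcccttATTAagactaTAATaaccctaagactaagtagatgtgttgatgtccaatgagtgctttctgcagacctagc
Iapp: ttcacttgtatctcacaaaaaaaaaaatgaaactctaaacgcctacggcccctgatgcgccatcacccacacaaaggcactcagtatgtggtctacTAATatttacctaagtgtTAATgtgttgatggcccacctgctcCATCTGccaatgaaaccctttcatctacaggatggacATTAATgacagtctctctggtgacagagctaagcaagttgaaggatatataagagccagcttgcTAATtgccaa
TAAT, the core letters of many homeodomain sites, was found 3 times upstream of Ins1 and 5 times upstream of Iapp, and 54.9% of 32851 promoter windows of this length held it at least once. CATCTG, an E-box, was found once in each window, and 14.4% of all windows held it. These matches describe letters and not binding. The annotated starts were not checked against reads, so the windows need not lie at like distances from where transcription begins.

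The 20 genes with the most reads took 11.2% ± 1.04 of all counted reads, and the top 100 took 19.5% ± 1.24. They comprised the 3 islet hormones, 6 genes of the mitochondrial genome, 5 genes of the secretory pathway and its granules (Gnas, Scg2, Pcsk2, Chga and Nnat), the lipogenic enzyme Acly, the calcium pump Atp2a2, the imprinted genes Meg3 and Peg3, the elongation factor Eef1a1 and Gm42418. Gnas, the stimulatory G protein subunit through which incretins raise cyclic AMP, was at 4071, 7449, 5416 and 5264 CPM. Nnat, a small imprinted protein of the endoplasmic reticulum that aids signal peptide cleavage in beta cells, was at 5050.3, 3164, 4568 and 4368 CPM. Acly, which makes cytosolic acetyl-CoA from citrate, was among the steadiest of them at 4312, 4393, 3932 and 4079 CPM. In the plot of these genes the widest bars are those of Gm42418 and Ins1.

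**Figure D1:**
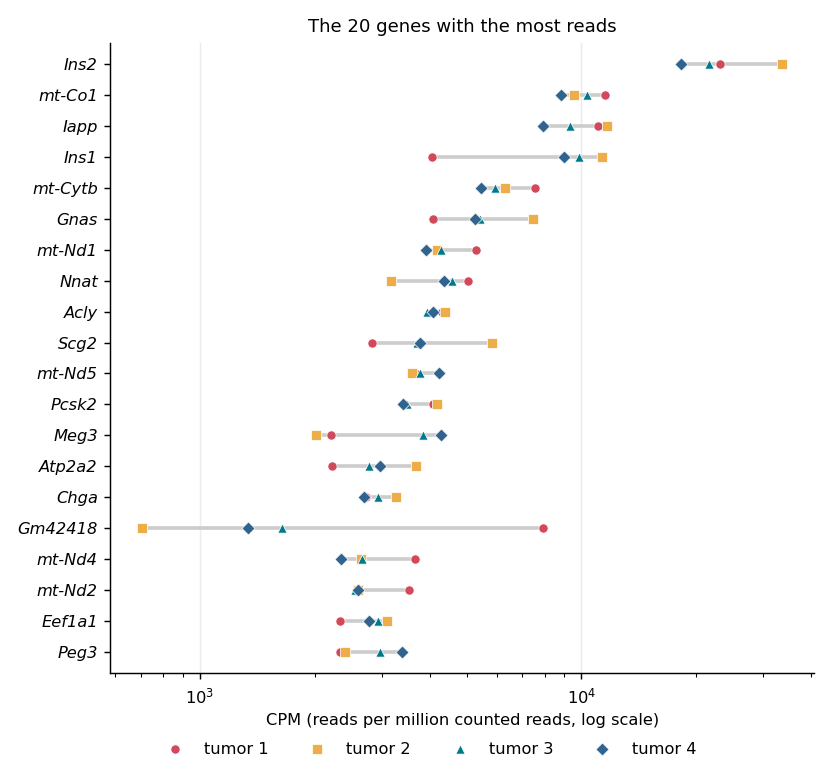
The 20 genes with the highest mean CPM in the 4 saline-treated tumors, with CPM on a log axis, 1 point per tumor and a grey bar from the lowest to the highest tumor. Ins2 lies at 18201 to 33639 CPM, and Gm42418 has the widest bar, from 706 to 7914 CPM.

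On the length-corrected scale other short transcripts entered the top 20. Npy, a neuropeptide of the nervous system that fetal and some adult islet cells also make, was the ninth most abundant gene at 7429 ± 1295 TPM. In single tumors it was at 1364, 973, 1409.9 and 1099.9 CPM, so that all 4 were high. Resp18, a granule protein, was at 1708, 866, 915 and 754 CPM with tumor 1 highest, and G6pc2, the islet glucose-6-phosphatase, was at 1591, 1873, 1413 and 1357 CPM. Among the genes of the mitochondrial genome, mt-Co1 led at 11535, 9551, 10352 and 8815 CPM. Of its 50-base words, 51.1% also occur in transcripts of other genes, and reads with several alignments were left out of the counts, so that its level is a lower limit. That share was 62.2% for mt-Nd4, 8.19% for mt-Nd2 and 7.61% for mt-Nd5, and 0% for mt-Cytb and mt-Nd1. The order of these genes is that of counted reads and was not corrected for it.

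Apart from insulin and amylin, the hormones of the other islet cells were present at much lower and more variable levels. Gcg, which marks alpha cells, was at 244, 170.4, 60.4 and 146 CPM, or 358 ± 167 TPM. Sst, which marks delta cells, was at 21.1, 4.73, 0.0258 and 1.52 CPM, where the value of tumor 3 is 1 read. Ppy was at 7.94, 2.26, 1.24 and 4.84 CPM and Pyy at 8.07, 2.21, 0.979 and 3.21 CPM. Tumor 1 was highest and tumor 3 lowest for all 4 of these genes, with highest-to-lowest ratios of 4.03 (Gcg), 5.51 (Ppy) and 6.77 (Pyy) on CPM + 0.25. In these bulk libraries, fewer cells of a type and less RNA per cell cannot be told apart. Ghrl, the ghrelin gene of epsilon cells, was at 0.317, 0.312, 0.232 and 0.0287 CPM.

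Among 17 other peptide genes, Nnat, Npy and Ucn3 stood far above the rest. Ucn3, a marker of mature beta cells, was at 389.7, 460.1, 332 and 299 CPM. The neighbours below them on the TPM scale were Cck, the cholecystokinin gene, at 10.2 ± 3.43 TPM, Pomc at 9.65 ± 0.768 TPM and Penk, the enkephalin precursor, at 8.32 ± 10.6 TPM. Penk was the least even, at 11.7, 2.83, 1.11 and 0.487 CPM. Gast, the gastrin gene of the fetal islet, was at 0.859, 0.468, 0.927 and 0.688 CPM. No read fell on Adcyap1, Gh or Prl in any tumor, and 0 reads among the 156392165 of the 4 tumors allow a level of up to 0.0192 CPM over the group, for counting error only.

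The transcription factors of the beta cell were all expressed. All 16 were at 1 CPM or more in every tumor, and 0 of them varied by 2 times or more, where 13.5% of the 14147 genes with a mean CPM of 1 or more did so beyond counting noise, and 6.19% without tumor 1. Their median SD of log2(CPM + 0.25) was 0.21, the same as the 0.21 over all tested genes. The summed level was 5335, 5162, 5682 and 6173 CPM. Mlxipl, which encodes the glucose-responsive factor ChREBP, was the highest per length at 1046 ± 161 TPM, followed by Pdx1 (559.8 ± 80.4 TPM), Isl1 (497 ± 106 TPM), Insm1 (487 ± 52.6 TPM) and Neurod1 (407 ± 70.2 TPM), and each of these 4 overlapped its neighbour in this order over tumors. Pdx1, the factor required for pancreas formation and insulin transcription, was at 331, 335, 324 and 398 CPM. Nkx6-1, which holds beta-cell identity against the other islet fates, was at 186, 243, 143 and 158 CPM. Mafa, which comes on as beta cells mature, was at 103, 100.1, 51.9 and 88.9 CPM and had the widest range of the list, 1.98 times, with its lowest value in tumor 3.

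Several factors of the other islet lineages were at or near 0, but the list as a whole was not. Its 10 genes summed to 104, 84.0, 207 and 179 CPM in tumors 1 to 4, mostly from members not named here. No read fell on Pou3f4, an alpha-cell factor. Hhex, the delta-cell factor, was at 3.14, 2.63, 2.60 and 2.49 CPM, and Neurog3, which marks endocrine progenitors, was at 0.430, 0.156, 0 and 0.0573 CPM. Irx2, another alpha-cell factor, was at 22.1, 19.4, 2.83 and 5.10 CPM, higher in tumors 1 and 2 than in tumors 3 and 4, and Irx1, a related factor, was at 11.1, 0.182, 0.0515 and 0.143 CPM, high in tumor 1 alone. Of the 6 genes of this list at a mean of 1 CPM or more, all but Hhex varied by 2 times or more (13.5% over all tested genes), and 3 of 4 tested did without tumor 1 (6.19%). Tumors 3 and 4 were both above tumors 1 and 2 in 2 of these 6 genes and both below in 4. The shares over all tested genes were 24.3% and 25.1%.

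Genes of glucose sensing and secretion were expressed throughout. All 17 genes listed for beta-cell function were at 1 CPM or more in every tumor, and 2 of the 17 (Gipr and Trpm5) varied by 2 times or more, a share near the 13.5% of all tested genes. Without tumor 1, 0 of the 17 did. The subunits of the potassium channel were even: Abcc8 was at 1527, 1785, 1674 and 1645 CPM and Kcnj11 at 79.95, 83.8, 83.7 and 81.5 CPM. Slc30a8, which loads granules with zinc, was at 698, 781, 1051 and 1168 CPM, lower in tumors 1 and 2 than in tumors 3 and 4. Glp1r, the receptor of the incretin GLP-1, was at 196, 184, 177 and 189.7 CPM and differed by no more than 1.11 times, whereas Gipr, the receptor of the other incretin, was at 48.4, 23.7, 34.3 and 35.2 CPM. Trpm5, a cation channel, was at 182, 348, 394 and 388 CPM, with tumor 1 lowest.

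All 23 neuroendocrine genes were at 1 CPM or more in every tumor, with a summed level of 22849, 26892, 20621 and 20603 CPM. Per length the leaders were Scg2 (5547 ± 1646 TPM), Chga (3652 ± 269 TPM), Cpe (3626 ± 818 TPM) and Chgb (2542 ± 686 TPM). Chga, chromogranin A, the clinical marker of neuroendocrine tumors, was at 2729, 3269, 2935 and 2687 CPM, an even level. Of the convertases that cleave proinsulin, Pcsk2 was at 4093, 4191, 3493 and 3411 CPM and Pcsk1 at 205, 323, 297 and 384 CPM. On the TPM scale Pcsk2 stood at 1661 ± 109 and Pcsk1 at 188 ± 53.1. Pcsk1n, which encodes the inhibitor proSAAS, was the least even member at 731, 227, 190.5 and 279 CPM, with tumor 1 highest. 4 members, Scg2, Scg5, Vgf and Pcsk1n, varied by 2 times or more, and 1 member did without tumor 1. These 4 of 23 are near the 13.5% of all tested genes, as is the 1 of 23 to the 6.19% without tumor 1.

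Levels were also read for 12 genes that normal beta cells keep low. Ldha, lactate dehydrogenase A, was at 18.7, 14.7, 18.8 and 12.9 CPM, and Slc16a1, the monocarboxylate transporter MCT1, was at 4.32, 2.52, 0.927 and 1.43 CPM. Hk1, the high-affinity hexokinase, was at 7.92, 7.31, 9.19 and 6.59 CPM. Of the 12 listed, Ly6a, Oat and Igfbp4 were the highest per length, at 71.3 ± 37.7, 50.7 ± 15.4 and 41.5 ± 12.7 TPM. Stromal cells of a tumor also express several of these genes, and the cell of origin was not measured. 5 of the 12 varied by 2 times or more (Slc16a1, Pdgfra, Igfbp4, Rest and Ly6a), where 13.5% of all tested genes did, and 2 of the 12 did without tumor 1, where 6.19% did.

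The untreated levels of the glycolytic and lactate-handling genes are given because these pathways are the subject of the study. The 24 genes were listed later than the others. Slc2a1, the glucose transporter GLUT1, was at 18.03, 23.6, 16.4 and 17.3 CPM and Slc16a3, the lactate exporter MCT4, at 3.17, 3.75, 4.22 and 3.09 CPM. Of the hexokinases, Hk1 was at 3.15 ± 0.435 TPM, Hk3 at 3.16 ± 1.17 TPM and Hk2 at 1.33 ± 0.105 TPM. Pkm, pyruvate kinase, was at 664, 727, 629 and 579.7 CPM, or 449.7 ± 25.2 TPM. Aldoa, an aldolase, was at 297, 287, 176 and 151 CPM, higher in tumors 1 and 2 than in 3 and 4. Gapdh was at 6.74, 6.50, 6.52 and 5.42 CPM and Pgk1 at 12.3, 11.3, 11.8 and 8.63 CPM. The values of Pkm, Gapdh and Pgk1 are lower limits and were not ranked. Of their 50-base words, 25.8% (Pkm), 24.7% (Gapdh) and 53.9% (Pgk1) occur in transcripts of other genes, and such reads were not counted. This share covers transcripts only, so reads lost to copies elsewhere in the genome were not measured.

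Among 12 targets of the hypoxia response Vegfa, which drives vessel growth, was the highest per length at 430.2 ± 36.2 TPM. In single tumors it was at 539, 502, 524 and 557 CPM and spanned a range of 1.11 times. Ndrg1, a stress-responsive gene, was at 265, 193, 192 and 166 CPM. Car9, a carbonic anhydrase used as a hypoxia marker, was at 0.814, 0.312, 0.541 and 0.315 CPM, and Ak4, an adenylate kinase, was at 0.588, 0.858, 0.695 and 0.831 CPM. Of the 12 targets, 10 had a mean of 1 CPM or more, and 1 of these, Adm, varied by 2 times or more, near the 13.5% of all tested genes.

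Of 20 ligands and receptors of the VEGF and PDGF families and of related receptor kinases, also listed later, 19 were at 1 CPM or more in every tumor. Kdr, the main VEGF receptor of endothelium, was at 91.4, 83.6, 119 and 100.1 CPM, Flt1 at 83.4, 66.6, 94.9 and 89.2 CPM and the lymphatic receptor Flt4 at 16.3, 18.9, 19.4 and 18.3 CPM. Pdgfrb, the PDGF receptor of pericytes, was at 40.6, 35.1, 57.8 and 41.2 CPM and Pdgfra at 5.63, 2.83, 3.68 and 2.09 CPM. Per length, Pdgfrb stood at 27.7 ± 6.68 TPM and Pdgfra at 1.22 ± 0.492 TPM. Ret, a receptor kinase of neuroendocrine cells, was the highest of the receptors per length at 132 ± 12.6 TPM and was at 245, 304, 247 and 235 CPM. Kit, the stem cell factor receptor, was at 24.8, 27.4, 52.4 and 56.9 CPM, so that tumors 3 and 4 were above tumors 1 and 2, and its ligand Kitl was at 12.7, 14.7, 20.04 and 20.5 CPM. Flt3, a receptor of blood progenitors, was at 0.859, 0.416, 0.515 and 0.430 CPM and was the 1 gene under 1 CPM.

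The 20 genes of the mTOR pathway, listed at the same time, had a median SD of log2(CPM + 0.25) of 0.13, where that of all tested genes was 0.21. Mtor, the kinase itself, was at 129.8, 162, 166 and 177 CPM. Its brake, the complex of Tsc1 and Tsc2, was at 126, 106, 114 and 125 CPM for Tsc1 and 196, 171, 169.7 and 165 CPM for Tsc2. The substrate Eif4ebp1, a translation repressor, was the 1 member that varied by 2 times or more, at 13.3, 29.4, 12.5 and 9.60 CPM with tumor 2 highest. Rps6, whose protein is the readout of S6 kinase, was at 4.86, 7.05, 6.49 and 6.16 CPM, and 43.8% of its 50-base words occur in transcripts of other genes.

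Genes of cell division were expressed in all 4 tumors, and unequally so. All 28 proliferation genes were at 1 CPM or more in every tumor. Mki67, which encodes the Ki67 antigen of cycling cells, was at 664, 792, 1149.7 and 1313 CPM, and Top2a, the topoisomerase of dividing cells, was at 579, 670.0, 913 and 1037 CPM. The summed level was 4190.3, 4569, 6194 and 6457 CPM, so that tumors 3 and 4 stood above tumors 1 and 2. In 25 of the 28 genes both of tumors 3 and 4 were above both of tumors 1 and 2, and in 0 genes below, where 24.3% of all tested genes were above in this way and 25.1% below. The 3 other genes were Mcm2, Mcm7 and E2f1. Mcm2, a subunit of the replicative helicase, was at 213, 211, 213 and 210.0 CPM and was among the 10 steadiest of all genes with a mean of 50 CPM or more. The largest ranges were those of Ccnb2 at 66.4, 97.1, 149 and 134 CPM and Cdc20 at 104, 159, 214 and 214 CPM, both genes of mitosis, and these were the 2 of the 28 that varied by 2 times or more, against 13.5% of all tested genes. Without tumor 1, 0 of the 28 did, against 6.19%. In the plot of the 28 genes the points of tumors 3 and 4 lie to the right for all but a few genes. The mean of tumors 3 and 4 exceeded that of tumors 1 and 2 by a median of 0.50 over the 28 genes on the log2 scale, against -0.01 over all tested genes. These pairs are those of the title endings, and what the endings stand for cannot be told apart from the difference between the tumors.

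**Figure D2:**
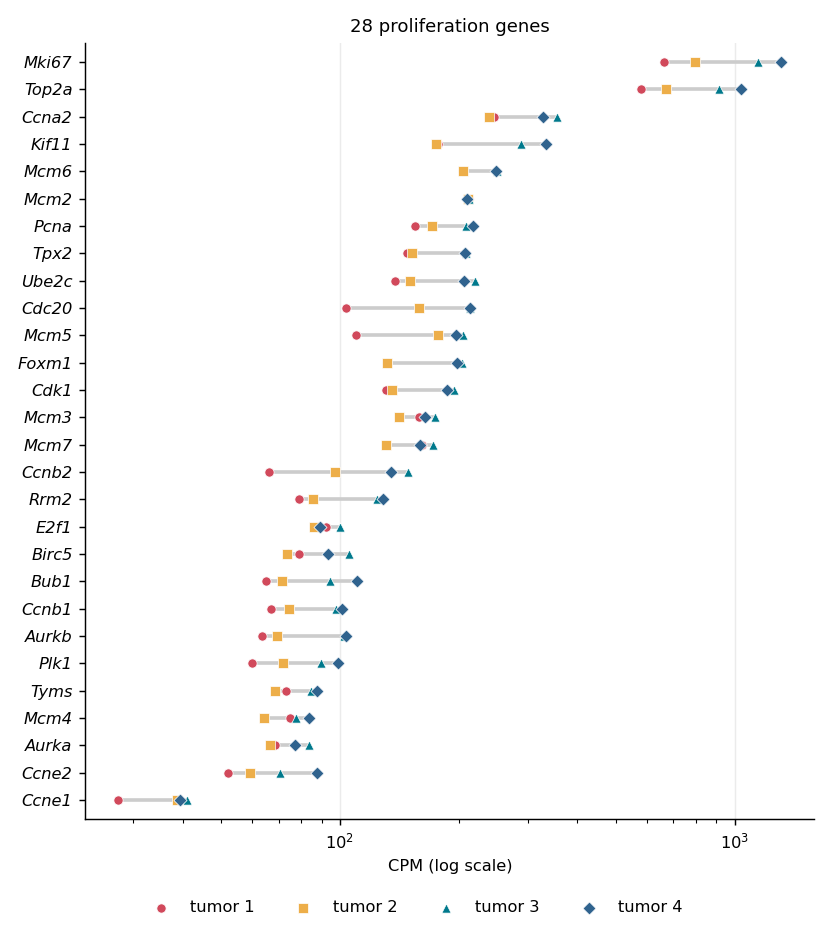
The 28 proliferation genes ordered by mean CPM, with CPM on a log axis, 1 point per tumor and a grey bar from the lowest to the highest tumor. Mki67 ranges from 664 CPM in tumor 1 to 1313 CPM in tumor 4, and the 4 points of Mcm2 fall on each other.

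Of the 16 genes of the cyclin D axis and its brakes, 15 were tested and 2 of them (Ccnd3 and Cdkn1c) varied by 2 times or more, and 1 did without tumor 1, both near the 13.5% and 6.19% of all tested genes. Per length, Cdkn2c, which encodes the kinase inhibitor p18, was highest at 422 ± 91.6 TPM, followed by the kinase Cdk4 (280.0 ± 13.3 TPM), Cdkn2a (262 ± 29.8 TPM) and Cdkn1b (207 ± 28.7 TPM). Cdkn2a, which encodes p16 and p19 of the senescence response, was at 80.5, 89.3, 86.7 and 96.1 CPM. Of the D cyclins, Ccnd1 was at 24, 19.6, 36.3 and 24.6 CPM and Ccnd2, the main D cyclin of the normal beta cell, was at 14.3, 11.2, 20.9 and 14.7 CPM. Cdk6, the other kinase that D cyclins activate, was at 0.317, 0.286, 0.541 and 0.774 CPM. Men1, the menin gene whose loss causes human endocrine tumors, was at 95.99, 91.8, 113 and 101 CPM and Trp53 at 71.1, 43.8, 61.7 and 53.01 CPM.

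Imprinted genes were among the most abundant and, in part, among the uneven. Igf2, the growth and survival factor known for its activation in this model, was at 2261, 1974, 1323 and 1270.5 CPM, higher in tumors 1 and 2 than in tumors 3 and 4. Of its 50-base words, 61.2% also occur in transcripts of another annotated gene, so that its level is uncertain. H19, its neighbour and a noncoding RNA of the opposite parental allele, was at 0.384, 1.33, 0.567 and 0.401 CPM. Meg3, a maternally expressed noncoding RNA, was at 2204, 2015, 3852 and 4295 CPM, and Dlk1, the paternally expressed gene of the same locus, was at 157, 240.3, 639 and 756 CPM. Both genes were therefore higher in tumors 3 and 4. The noncoding neighbours Rian and Mirg were higher in tumors 3 and 4 as well, Rian at 804, 879.7, 1486 and 1602 CPM. Dio3 and Begain of the same locus, both under a mean of 1 CPM, were lower in tumors 3 and 4. Dio3 was at 0.973, 1.01, 0.489 and 0.258 CPM and Begain at 1.15, 0.416, 0.232 and 0.143 CPM. Rtl1 was at up to 0.0520 CPM. Ndn, an imprinted gene elsewhere, was at 118, 21.3, 7.55 and 12.7 CPM, with tumor 1 highest. Rian, Mirg, Rtl1, Dio3, Begain and Ndn were added after the values of the lists had been seen.

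Vessel genes were expressed in every tumor. All 18 endothelial genes were at 1 CPM or more in every tumor, with a summed level of 809, 774, 1019.8 and 858 CPM, and 1 of them, Cdh5, varied by 2 times or more (13.5% over all tested genes), and 0 did without tumor 1 (6.19%). Pecam1, the adhesion molecule CD31, was at 69.2, 77.1, 109 and 89.6 CPM. Plvap, the diaphragm protein of fenestrated capillaries, was highest per length at 261 ± 22.2 TPM, and in single tumors it was at 151, 140.4, 164 and 142 CPM. Tumor 3 had the highest summed level. It was also highest in the 10 pericyte and smooth muscle genes, which summed to 425, 504, 740.4 and 551 CPM. Rgs5, a pericyte marker, was at 266, 307, 462 and 315 CPM and Acta2, smooth muscle actin, at 25.9, 47.2, 64.5 and 49.1 CPM, with tumor 1 lowest in both. In 9 of the 10 pericyte genes and 10 of the 18 endothelial genes tumors 3 and 4 were above tumors 1 and 2, where 24.3% of all tested genes had this order.

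Genes of the basement membrane and of fibroblasts did not share 1 order of tumors. Col4a1, a collagen of the vessel wall, was at 320.3, 449, 631 and 461 CPM. Col1a1 and Col3a1, the fibrillar collagens of fibroblasts, were at 145, 159.5, 195 and 65.2 CPM and at 269, 248, 333 and 125 CPM. Tumor 4 was lowest for both fibrillar collagens, and Col4a1 was lowest in tumor 1. Dcn, the proteoglycan decorin, was at 128, 47.7, 62.4 and 20.3 CPM, and Dpt, dermatopontin, at 43.7, 11.9, 9.79 and 3.78 CPM. These 2 ranged furthest, by 6.27 and 10.9 times. Of the 13 genes, 11 varied by 2 times or more, where 13.5% of all tested genes did.

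**Figure D3:**
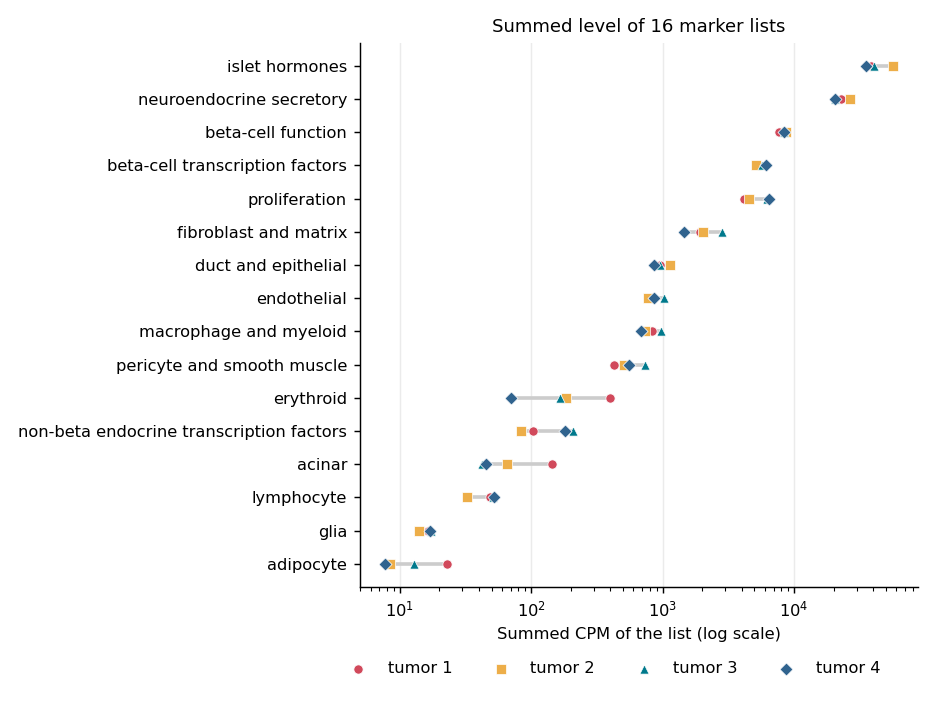
Summed CPM of 16 marker lists in the 4 saline-treated tumors on a log axis, with 1 point per tumor and a grey bar from the lowest to the highest tumor. Islet hormones sum to 35263 CPM or more in every tumor, while the acinar, erythroid and adipocyte lists have the widest bars with tumor 1 highest.

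Of the 12 macrophage and myeloid genes tested, 1, Itgam, varied by 2 times or more, near the 13.5% of all tested genes, and their median SD of log2(CPM + 0.25) was 0.28 against 0.21. C1qa, a complement component of tissue macrophages, was at 139.5, 154, 154 and 113 CPM, Lyz2, lysozyme, at 248, 210.2, 304 and 194 CPM and Csf1r, the receptor that macrophages need to survive, at 58.5, 47.9, 78.6 and 59.9 CPM. Tumor 3 was highest in the summed level of the 14 genes, 825, 736, 972 and 681 CPM. The neutrophil genes S100a8 and S100a9 were at up to 0.103 and 0.155 CPM. T cell genes were scarce, with Cd3e at 1.36, 0.416, 0.438 and 0.373 CPM and Cd8a at 1.95, 0.988, 0.644 and 0.573 CPM, both highest in tumor 1. Cd4, which macrophages can also express, was at 10.9, 6.97, 12.4 and 11.8 CPM. The B cell gene Cd79a was at 0.701, 0.520, 2.11 and 2.12 CPM, higher in tumors 3 and 4.

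Transcripts of exocrine, plasma and red cells were highest in tumor 1. The 15 digestive enzymes of the acinar list summed to 108, 3.51, 3.37 and 7.71 CPM, so that tumor 1 was 14.0 times above the next tumor. Among them, Ctrb1, chymotrypsinogen, was at 19.1, 0.390, 0.438 and 1.95 CPM and Pnlip, pancreatic lipase, at 12.9, 0.390, 0.103 and 0.373 CPM. No read fell on Prss1, Amy2a5 or Ptf1a in any tumor, although 53.5% of the words of Amy2a5 and 54.9% of those of Prss1 are shared with other genes. Of the 13 acinar genes tested, 12 varied by 4 times or more, where 2.86% of all tested genes did. These members reached a mean of 1 CPM mostly through tumor 1, so that nothing is read from the count, and without tumor 1 there were 2 genes at a mean of 1 CPM, of which 0 varied by 2 times. The exception was Bhlha15, a secretory-cell factor, at 31.2, 62.1, 38.8 and 37.4 CPM with tumor 2 highest. 4 plasma cell genes (Igha, Igkc, Ighg2c and Jchain) summed to 188, 29.9, 11.2 and 13.98 CPM, and the 5 red cell genes to 396, 183, 166 and 69.8 CPM. The red cell sum is a lower limit, since its hemoglobin genes share many words with other genes and such reads were not counted. The share was 72.3% for Hba-a1, 89.3% for Hba-a2, 53.2% for Hbb-bs and 58.3% for Hbb-bt. As counted, the acinar, plasma cell and red cell sums are small beside the islet hormones. Their part in the other differences of tumor 1 was not tested.

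The keratins and duct factors did not move as 1 group. Krt7, a keratin of simple epithelia, was at 445, 471, 428 and 370.2 CPM, and Krt8 at 149, 146, 152 and 131 CPM, both even. Krt19, the keratin that marks duct cells and some PanNETs, was at 2.92, 0.754, 0.180 and 0.201 CPM. Sox9, a factor of ducts and progenitors, was at 0.498, 0.208, 0.0515 and 0.287 CPM and Cftr, the chloride channel of ducts, at 0.384, 0.0520, 0.0258 and 0.115 CPM. Epcam was at 97.1, 150.3, 110.0 and 107 CPM and Cdh1, E-cadherin, at 153, 285, 212 and 199.5 CPM, beside Cdh2, N-cadherin, at 102, 113, 115 and 140.3 CPM. Spp1, osteopontin, was at 28.3, 9.21, 1.52 and 5.16 CPM with tumor 1 highest.

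Most antigen presentation and interferon genes were higher in tumors 1 and 2. In 10 of the 12 genes of this list both of these tumors were above both of tumors 3 and 4, where 25.1% of all tested genes had this order. H2-K1, a class I molecule, was at 709, 1149, 682 and 587 CPM, and B2m, its light chain, at 395, 479, 313 and 254 CPM, both with tumor 2 highest. Cd74, the class II chaperone of antigen-presenting cells, was at 269.6, 168, 181 and 102 CPM, and Irf7, an interferon-induced factor, at 67.9, 34.9, 28.3 and 32.6 CPM, both with tumor 1 highest. 5 of the 12 varied by 2 times or more (Ifit1, Ifit3, Irf7, H2-Ab1 and Cd74), against 13.5% of all tested genes, and 0 did without tumor 1, against 6.19%.

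A large part of the genome was silent. Of the 38924 genes, 14936 had 0 reads in all 4 tumors, among them 3912 of 21226 protein-coding genes, and 19707 stayed below 0.1 CPM in each tumor. They included most sensory receptors. Of 1037 olfactory receptor genes, 969 had 0 reads, and of 166 and 122 vomeronasal receptor genes of the families Vmn1r and Vmn2r, 154 and 103 had 0 reads. Olfr558 was the highest olfactory receptor at 3.55, 5.85, 6.67 and 5.76 CPM, and the highest vomeronasal receptor, Vmn2r96, was at 2.37, 1.46, 11.5 and 15.8 CPM, above in tumors 3 and 4. Of 54 keratin-associated protein genes 50 had 0 reads. Of 17 markers of other tissues, 4 had 0 reads, namely Prm1 (sperm), Sftpc (lung), Krt14 (basal epidermis) and Cyp11b1 (adrenal cortex), and 3 were at 1 CPM or more in every tumor. These 3 were Apoa2, an apolipoprotein of the liver, at 1.85, 2.11, 2.16 and 1.75 CPM, Acta1, skeletal muscle actin, at 2.15, 2.99, 1.93 and 1.29 CPM, and Mbp. The liver gene Alb was at 1.40, 0.572, 0.515 and 0.544 CPM. Mbp, a myelin gene whose locus also gives transcripts outside the nervous system, was at 125, 110.0, 118 and 112 CPM. The glial markers Sox10 and Gfap were at up to 0.384 and 0.180 CPM. The 5 genes of the glia list summed to 16.4, 14.0, 17.4 and 16.9 CPM, and 1 of them was at 1 CPM or more in every tumor. Gene families of ribosomal proteins were at the other end, with 77 of 83 genes at 1 CPM or more in every tumor and a summed level of 12388, 12411, 10781 and 9218 CPM. This sum is a lower limit. Rplp1, Rps6 and Rplp0, for example, share 60, 43.8 and 33.1% of their 50-base words with other genes.

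The spread between the tumors was then measured across all genes. Of 14147 genes with a mean CPM of 1 or more, 12949 (91.5%) differed between the 4 libraries by more than counting noise (chi-square test of each gene's counts given the totals, Benjamini-Hochberg adjusted p under 0.05). With 1 library per tumor, differences between tumors and between library preparations cannot be told apart. The highest tumor was at least 2 times the lowest in 1904 genes, a share of 13.5%, and at least 4 times in 405 genes (2.86%). Without tumor 1 these counts were 866 and 137. The typical gene was steady, with a median highest-to-lowest ratio of 1.38. The biological coefficient of variation, the spread beyond counting noise that edgeR estimates over all genes, was 0.242. The same value was 0.236 for the 4 tumors treated with rapamycin plus sunitinib and 0.46 for the 4 treated with sunitinib, and the difference between groups was not tested. Without tumor 1 the value for the saline-treated tumors was 0.197.

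Tumors 3 and 4 were the most alike pair. The SD over genes of their log2 ratio was 0.30, against 0.48 to 0.65 for the other 5 pairs, and 1.40% of tested genes differed by 2 times or more between them. They were not copies of 1 library, since their squared differences were 25.6 times those of counting noise. The most distant pair was that of tumors 1 and 4, in which 8.33% of genes differed by 2 times or more. Across genes, Pearson's r of log2(CPM + 0.25) was 0.991 for tumors 3 and 4 and 0.954 for tumors 1 and 4, over 14147 genes that are not independent replicates.

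**Figure D4:**
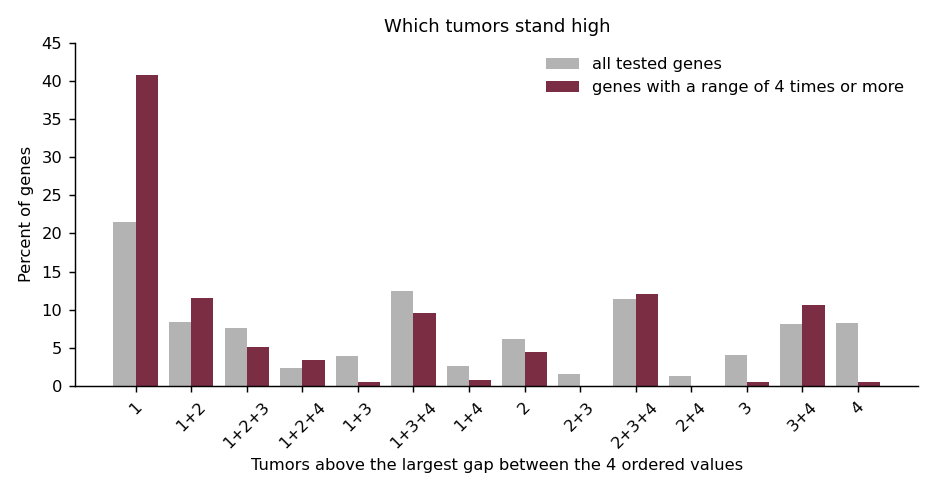
Percent of all 14147 tested genes (grey) and of the 405 genes with a range of 4 times or more (dark red) by which tumors lie above the largest gap between the 4 ordered log2 values. Tumor 1 alone is high in 21.5% of tested genes and in 40.7% of the genes with a range of 4 times or more.

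The genes with a range of 4 times or more fell into a few patterns of tumors, shown in the plot of shares by pattern. By the largest gap between the 4 ordered values, tumor 1 alone was high in 165 of the 405, tumors 1 and 2 in 47, tumors 3 and 4 in 43, and tumor 1 alone was low in 49. The next pattern had tumor 2 alone low, in 39 genes. Tumor 1 was the highest tumor in 246 of the 405 (60.7%), and in 41.3% of all tested genes.

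The 20 most variable genes with a mean of 5 CPM or more came from all of these patterns. Cdh19, a cadherin known from Schwann cells and their precursors, was at 0.498, 0.676, 93.4 and 74.5 CPM, nearly absent from tumors 1 and 2 and present in tumors 3 and 4. The glial marker Sox10 was near 0 in all 4, at 0.384, 0.0520, 0 and 0.201 CPM. In the 5-gene glia list, 1 gene had a mean of 1 CPM or more. It was higher in tumors 3 and 4 than in tumors 1 and 2, by 0.26 on the log2 scale. The cell source of Cdh19 was not tested. Bglap3, a gene of the osteocalcin cluster, was likewise high in tumors 3 and 4, at 0.0905, 0.676, 8.06 and 13.7 CPM. Arhgap36, an X-linked regulator of protein kinase A and hedgehog signaling, was the most abundant of the 20 and was at 242, 31.9, 1472 and 1422 CPM. Pla2g2f, a secreted phospholipase, had a like order at 18.6, 1.04, 285 and 177 CPM, so that tumor 1 lay between tumor 2 and the other two for both genes.

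The reverse pattern was that of Rec8, a cohesin subunit of meiosis, at 127, 139, 0.773 and 3.90 CPM. Col9a2, a cartilage collagen, was at 37.6, 68.2, 1.00 and 1.35 CPM and Lmx1b, a LIM homeodomain factor, at 28.3, 25.02, 0.979 and 4.44 CPM. Prrt1, a partner of glutamate receptors, was at 69.6, 69.5, 4.82 and 5.50 CPM, and Gpld1, which cleaves lipid anchors of surface proteins, was at 86.9, 67.3, 3.53 and 8.14 CPM. These 5 genes were high in tumors 1 and 2 and low in tumors 3 and 4, without overlap. Ccl21a, a lymphoid chemokine, ran the same way at 19.4, 10.4, 0.438 and 1.89 CPM, although 71.6% of its words are shared with copies of the gene.

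Other genes were high in 1 tumor. Pdyn, the dynorphin precursor, was at 2.78, 124, 5.79 and 14.9 CPM, with tumor 2 above every other tumor. Rps4l, annotated as a transcribed processed pseudogene, was at 4.43, 124, 1.78 and 1.98 CPM, and 14.9% of its words are shared with other genes. Mtus2, a microtubule-associated gene, was at 0.814, 19.01, 0.541 and 0.774 CPM. Tumor 2 was again highest for both. Tumor 1 alone was high in Kndc1 (26.8, 1.25, 0 and 0.143 CPM), Tspoap1 (23.3, 3.90, 0.155 and 0.860 CPM), Inmt (18.6, 4.21, 1.55 and 0.344 CPM), the antibody gene Ighg2c (23.4, 0.494, 0.103 and 0.0860 CPM) and Ctrb1 described above. Pet2, an X-linked gene, was the reverse, nearly absent from tumor 1 at 0.226, 16.9, 14.96 and 9.77 CPM. Pappa2, a protease that frees insulin-like growth factors from their binding proteins, was also low in tumor 1, at 133, 1552, 1202 and 1302 CPM. It was named after its values were seen.

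**Figure D5:**
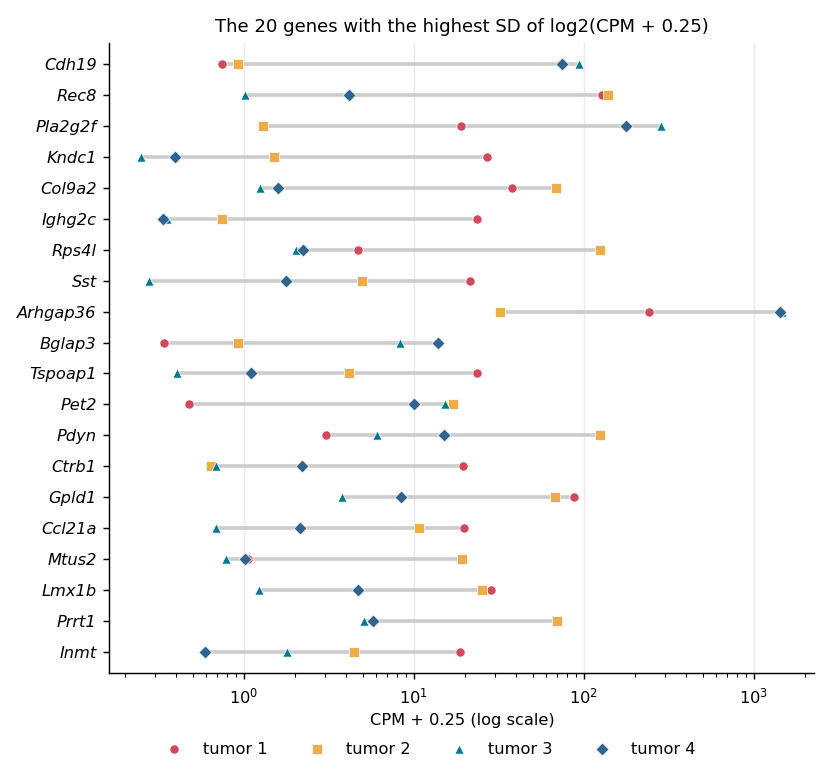
The 20 genes with the highest SD of log2(CPM + 0.25) among named genes with a mean of 5 CPM or more, with CPM + 0.25 on a log axis, 1 point per tumor and a grey bar from the lowest to the highest tumor. Cdh19 splits tumors 3 and 4 (74.5 CPM or more) from tumors 1 and 2 (0.676 CPM or less), and Rec8 splits them the other way.

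At the other end were the 10 steadiest genes with a mean of 50 CPM or more. Zfp68, a zinc finger gene, was at 65.5, 65.5, 65.4 and 65.2 CPM, and Vwa8 at 83.6, 83.7, 83.03 and 83.1 CPM. Smarca4, the ATPase of the BAF chromatin remodeller, was at 214, 215, 218 and 215 CPM and Larp1, a regulator of the translation of ribosomal protein mRNAs, at 199, 202, 202 and 198 CPM. The others were Kctd3, Mcm2, Ift52, Prelid3b, Hnrnpf and Mark3, and in all 10 the highest tumor was at most 1.03 times the lowest. Of the usual reference genes, Actb was at 905, 774, 902 and 712 CPM, Tbp at 47.2, 39.97, 47.7 and 52.9 CPM and Hprt at 119, 109, 101 and 95.6 CPM, none of which varied by 2 times. Of the immediate early genes, which respond to handling of tissue, Fos was at 4.21, 3.64, 4.22 and 4.58 CPM and Jun at 45.96, 47.7, 63.5 and 75.2 CPM. Of the 10 such genes, 0 varied by 2 times or more, and their median SD of log2(CPM + 0.25) was 0.20, near the 0.21 of all tested genes.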

How the data were processed

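RNA-seq of 4 saline-treated PanNETs was used. The authors deposited raw read counts per gene for each tumor, without normalization. Per the labels, libraries were Truseq Stranded mRNA, and the submitters' processing notes name cutadapt 1.2.1, TopHat2 2.0.9, HTSeq 0.5.4p3 and GRCm38. The strand setting and the annotation release were not given in the sources used here. The 5 closing summary lines of each table were removed. Reads aligned to several places were not counted, which lowers genes with close copies.

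CPM used the total of all genes, and TPM used merged exon lengths of GENCODE M21, which gave symbols for 37607 of 38924 genes. Shared sequence was the share of a gene's 50-base words found in transcripts of other genes. Copies outside these transcripts were not searched, also for genes with a share of 0%. Genes with a mean of 1 CPM or more were tested (chi-square test of counts given totals, Benjamini-Hochberg), with SDs of log2(CPM + 0.25) and calls at 2 and 4 times between the highest and lowest tumor on CPM + 0.25. PCR copies were not marked, so counting limits cover counting error only. The biological coefficient of variation came from edgeR 4.0.16 in R 4.3.3 (TMM, filterByExpr, intercept only). The script was tested on simulated data. Named genes were the top 20 by CPM and by TPM, listed genes, the 20 most variable at a mean of 5 CPM or more, the 10 steadiest at 50 CPM or more, and families for silent genes, leaving predicted genes out of the variable and steady sets. Some listed genes count in the lists' totals but are not reported here by name. The members and lists were chosen with earlier results of these data known. Alternatives were TMM, DESeq2 1.42.0 and upper-quartile scaling, other filters and pseudocounts, equal depth, transcript length and each tumor left out.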

Additional observations from a re-analysis of the deposited data

Results flagged for a closer look

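In 12 of the 74 values examined, 1 tumor lay far from the other 3, with a gap to its nearest neighbour so large a part of the whole range that it passed Dixon's 95% critical value for 4 samples. Chance alone flags about 1 in 20 such groups of normally distributed values. That rate does not hold for the 20 genes that were chosen for their spread between these tumors. Of the 12 values, 7 belong to such genes (Kndc1, Ighg2c, Rps4l, Tspoap1, Pdyn, Ctrb1 and Mtus2) and are given as a description. The distant tumor was tumor 1 in 8 cases and tumor 2 in 4, and it was high in each. The check used CPM and not log2 values. On that scale a low tumor is flagged less easily than a high one, so nothing is read from the direction.

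For tumor 1 these were Gm42418 at 7914 CPM, the mitochondrial gene mt-Nd2 at 3537 CPM, the granule gene Resp18 at 1708 CPM, Kndc1 at 26.8 CPM, the antibody gene Ighg2c at 23.4 CPM, Tspoap1 at 23.3 CPM and the digestive enzyme gene Ctrb1 at 19.1 CPM. The summed CPM of the 12 hypoxia targets was also highest in tumor 1, at 979 CPM against 839 to 849 CPM in the others. For tumor 2 they were the granule enzyme gene Cpe at 3748 CPM, Rps4l at 124 CPM, Pdyn at 124 CPM and Mtus2 at 19.01 CPM.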

How the results depend on the processing

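The count of genes with a range of 2 times or more (1904) moved to 1044 with a mean of 5 CPM or more required and to 2877 with no filter, and lay between 866 (without tumor 1) and 1693 with 1 tumor left out. The count with a range of 4 times or more (405) moved to 182 with a mean of 5 CPM or more, to 238 with a pseudocount of 1 CPM, and lay between 137 (without tumor 1) and 361 with 1 tumor left out. The top 20 genes took 9.71% of reads, in place of 11.2%, with the mitochondrial genome left out. The list of proliferation genes in which tumors 3 and 4 were above tumors 1 and 2 held 26 of 28 genes under TMM, DESeq2 and upper-quartile scaling and 25 with Gm42418, Lars2 and mitochondrial genes left out of the totals, an alternative chosen after seeing the data. The other summary values stayed within 1.5 times for counts, or within 1 SD for levels, under each alternative run. The SDs of the log2 levels of the most variable genes stayed the same in 108 recalculations and moved in 72, all of the latter under another pseudocount or with 1 tumor left out. No paired analysis was possible because no groups were compared. With 1 library per tumor, technical spread was not measured, and genes under 1 CPM rest on fewer than 44.2 reads in any tumor.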

Other observations

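Of 10 tested genes of adhesion and invasion, 2 (Mmp2 and Timp1) varied by 2 times or more, near the 13.5% of all tested genes, and the list's median SD of log2(CPM + 0.25) was 0.26 against 0.21. Spock2, a matrix proteoglycan, was at 645, 636, 464 and 411 CPM, and L1cam, a neural adhesion molecule, at 38, 33.8, 32.9 and 29.6 CPM. The cathepsin Ctsb was at 679, 601, 679.5 and 487 CPM, whereas Mmp9, the gelatinase linked to the angiogenic switch of this model, was at 0.339, 0.260, 0.412 and 0.172 CPM. Hpse, which encodes heparanase, was at 35.6, 25.2, 20.6 and 19.8 CPM, with tumor 1 highest.

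The genes of fat cells were low. Adipoq was at 1.36, 0.390, 0.979 and 0.0860 CPM and Lep at 0.204, 0.0520, 0.103 and 0 CPM. Fabp4, which endothelium also expresses, was at 18.98, 7.59, 10.7 and 7.54 CPM. The summed level of the 5 genes was highest in tumor 1, at 22.96, 8.45, 12.9 and 7.74 CPM.

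Further genes were picked after their values had been seen. Slc38a5, an amino acid transporter, was at 1250.4, 1072, 1309 and 1291 CPM and ranked 25 of all genes by TPM. Gcgr, the glucagon receptor, was at 16.7, 1.98, 2.78 and 1.86 CPM. The small nuclear RNA Rn7sk was at 48.02, 2.26, 5.90 and 7.54 CPM and the mitochondrial ribosomal RNA mt-Rnr1 at 401, 168, 228 and 210.5 CPM, both with tumor 1 highest, as for Gm42418. The share of reads that HTSeq assigned to no feature, among these and the reads on genes, was 15.3, 13.7, 16.5 and 18.8% in tumors 1 to 4.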
